A study of Rattus norvegicus with 12 samples.

Results

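The genes described here are 35 genes of autophagy and the lysosome, listed by name and followed over 4 groups of arrays. A gene was taken as measured where the platform table gives a probe set its symbol and no other: 32 of the 35 were found in this way, among 14217 genes on the array, and all 32 passed the filter on dim probe sets. They sit on 55 probe sets, of which 48 passed, and each gene is represented by its brightest probe set. Map1lc3b, Nbr1 and Gabarapl2 lie only on probe sets that carry several symbols and are given no value.

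The material was total RNA of cultured granule neurons from the rat cerebellum, the small excitatory neurons of its cortex. Each group holds 3 arrays with the letters A, B and C: low potassium for 3 h, GW5074 for 3 h, low potassium for 6 h and GW5074 for 6 h. In culture these neurons are usually kept alive by raised potassium, and their death is commonly started by lowering it. GW5074 is a small-molecule kinase inhibitor best known for blocking c-Raf. The labels name no strain and no age, leave unsaid whether cultures given GW5074 were in low potassium too, and give no group in raised potassium or without treatment. Treatment time and time in culture cannot be told apart. Nothing in the labels says that the letters are separate cultures, so the p-values rest on a spread between samples, which may be technical.

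In autophagy a cell encloses part of its own contents in a double membrane and delivers it to the lysosome for digestion. A kinase complex around ULK1 starts the process, a lipid kinase complex around PIK3C3 marks the membrane, and ubiquitin-like conjugation attaches Atg8-family proteins to it. Those proteins hold cargo receptors, and the vesicle then fuses with the lysosome, whose genes are in part switched on by TFEB. Neurons depend on this route because they do not divide and so cannot dilute damaged proteins and organelles. Transcript levels do not measure the rate of the process, which is set largely by the proteins.

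TFEB is known to bind the letters CACGTG, often as TCACGTG, near the start of lysosomal and autophagy genes. RefSeq promoter windows of assembly GRCr8, which run from 250 bases before to 50 bases after a gene's start, were found for 26 of the 32 measured genes. Read on both strands, CACGTG, which is its own reverse complement, was in 6 of the 26 (23.1%), in Atg3, Atg5, Atg14, Bnip3, Ctsd and Lamp1. It was in 6.42% of all 33469 windows. The longer TCACGTG, which contains it, was in 4 (15.4%), in Atg3, Atg14, Ctsd and Lamp1, against 3.2% of all windows. Neither GTAAACA, a FOXO and forkhead motif, nor TGANTCA, an AP-1 motif, was in any of the 26, against 3.78% and 7.33% of all windows. The bases before the start are shown for the 3 genes whose upstream part holds TCACGTG, with CACGTG in capitals, and for Wipi1 and Tfeb, the genes with the largest falls over time, where these letters are not in the window.
Lamp1, chr16:83075064-83075313, minus strand: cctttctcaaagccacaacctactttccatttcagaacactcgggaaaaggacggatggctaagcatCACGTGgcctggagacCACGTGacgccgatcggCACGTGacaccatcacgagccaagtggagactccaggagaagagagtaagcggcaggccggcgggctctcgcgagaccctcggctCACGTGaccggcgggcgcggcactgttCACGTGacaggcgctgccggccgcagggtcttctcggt
Ctsd, chr1:206968822-206969071, minus strand: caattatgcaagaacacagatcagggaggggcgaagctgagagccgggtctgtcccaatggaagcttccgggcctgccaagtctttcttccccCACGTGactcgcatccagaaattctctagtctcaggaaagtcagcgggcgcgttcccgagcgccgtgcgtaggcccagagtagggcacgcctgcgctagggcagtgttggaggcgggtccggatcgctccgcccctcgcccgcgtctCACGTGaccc
Atg3, chr11:69159281-69159530, minus strand: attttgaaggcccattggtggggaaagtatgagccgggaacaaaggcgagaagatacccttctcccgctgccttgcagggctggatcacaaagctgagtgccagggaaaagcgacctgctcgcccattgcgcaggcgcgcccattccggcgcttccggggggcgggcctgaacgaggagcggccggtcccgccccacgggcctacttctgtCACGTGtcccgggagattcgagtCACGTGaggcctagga
Wipi1, chr10:95079294-95079543, minus strand: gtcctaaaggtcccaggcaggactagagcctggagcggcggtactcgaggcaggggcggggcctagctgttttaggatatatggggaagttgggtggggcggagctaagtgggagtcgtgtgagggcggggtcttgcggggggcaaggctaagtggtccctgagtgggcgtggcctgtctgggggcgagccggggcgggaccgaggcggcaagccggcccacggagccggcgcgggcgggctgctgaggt
Tfeb, chr9:20703125-20703374, minus strand: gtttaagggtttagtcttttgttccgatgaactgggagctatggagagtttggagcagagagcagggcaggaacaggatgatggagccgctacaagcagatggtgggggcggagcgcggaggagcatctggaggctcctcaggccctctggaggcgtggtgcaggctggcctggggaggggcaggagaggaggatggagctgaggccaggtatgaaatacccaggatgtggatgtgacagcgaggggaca
The letters occur 5 times upstream of Lamp1, 2 times upstream of Ctsd and 2 times upstream of Atg3. A match is a description of the letters, not a measured binding site.

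Values are deposited intensities, scaled by the authors to the same trimmed mean on every array. Log2 and fold changes were taken after quantile normalisation with 16 added, which understates the change of dim genes, and were tested with limma, with Benjamini-Hochberg adjustment over 18625 probe sets at 0.05. Time set the arrays apart: on the first principal component (54.7% of the variance), scaled so that the 3 h mean is 0 and the 6 h mean is 1, the 3 h arrays lay between -0.0844 and 0.115. At 6 h, letters A and C were at 1.10 to 1.24, and letter B at 0.691 (low potassium) and 0.628 (GW5074). The title of the 6 h GW5074 array A ends in e3_le1 and the other titles in e1_le1, a difference that the labels leave unexplained.

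The cultures carried granule neuron markers. The summed intensity of the 12 measured markers had a median of 9047 in low potassium and 8492 with GW5074 at 3 h, and of 14810 and 16730 at 6 h. From 3 h to 6 h, 6 of the 12 rose in low potassium and 12 of 12 with GW5074, among them Gabra6 and Neurod1. Of all genes 11.5% and 13.5% rose. All 12 log2 changes were above 0 in low potassium too. The change over time differed between the treatments for 0 of the 12 markers, and for 1 (Reln) with a replicate block of equal letters within a time. Of 8 astrocyte markers 1, Gfap, rose in both treatments, and the astrocyte sum went from medians of 2943 and 2706 to 4199 and 3895. Gfap made up much of that rise, with means of 473 and 421 at 3 h and 1946 and 1658 at 6 h. The median log2 change of the 8 markers was -0.03 in each treatment, with 4 below 0 in low potassium and 5 with GW5074. The sum of 7 oligodendrocyte lineage markers went from 3144 and 3315 to 2429 and 2250, and 1 of them, Cnp, fell. The microglia and macrophage sum, over 8 of 12 listed markers, was 864 and 937 at 3 h and 936 and 1002 at 6 h, with Aif1, Itgam, Cx3cr1 and Ptprc below the filter. Of 3 endothelial and fibroblast markers kept none passed, with sums of 102.6 to 262 over all arrays, and of 6 Purkinje and GABAergic neuron markers Pvalb fell in both treatments. The part of these shifts in the results below was not tested. In such bulk samples, fewer cells of a type and less RNA per cell cannot be told apart.

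Between 3 h and 6 h genes of the set passed the test in both directions. Those that passed included 2 rises of 4 initiation genes in each treatment, 2 and 3 falls of 6 conjugation genes, and 1 and 3 falls of 6 lysosomal genes. The nucleation complex had 1 rise in low potassium, and 2 rises and 1 fall with GW5074. The membrane supply group had 1 fall in low potassium, and 1 rise and 1 fall with GW5074. The Atg8 family had 1 fall in each treatment, and the cargo receptors 1 rise in low potassium alone. In low potassium 9 of the 32 genes passed the threshold (28.1%), 4 upward and 5 downward, while 25.6% of all 10260 genes passed, 11.5% upward and 14.1% downward. With GW5074 14 of 32 passed (43.8%), 5 upward and 9 downward, while 27.6% of all genes passed, 13.5% upward and 14.1% downward. The median log2 change of the 32 was -0.08 and -0.03, beside -0.04 and -0.02 over all genes. The share in low potassium was thus close to that of all genes, and both medians were near 0. The share with GW5074 varied with the processing and with the arrays left out, and the share of all genes varied too. With the mean of all probe sets of a gene it was 31.2% (4 upward and 6 downward), beside 27.6% of all genes. Over the alternatives it ran from 21.9% without the GW5074 array 6 h A (15.1% of all genes) to 46.9% without the low-potassium array 6 h B (29.2% of all genes). The same 8 genes passed in both treatments, in the same direction each time (88.9% of the low-potassium calls and 57.1% of the GW5074 calls): Ulk1, Rb1cc1 and Pik3c3 rose, and Wipi1, Atg3, Atg16l1, Gabarap and Tfeb fell. A further 7 genes passed in 1 treatment and 17 in neither.

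**Figure D1:**
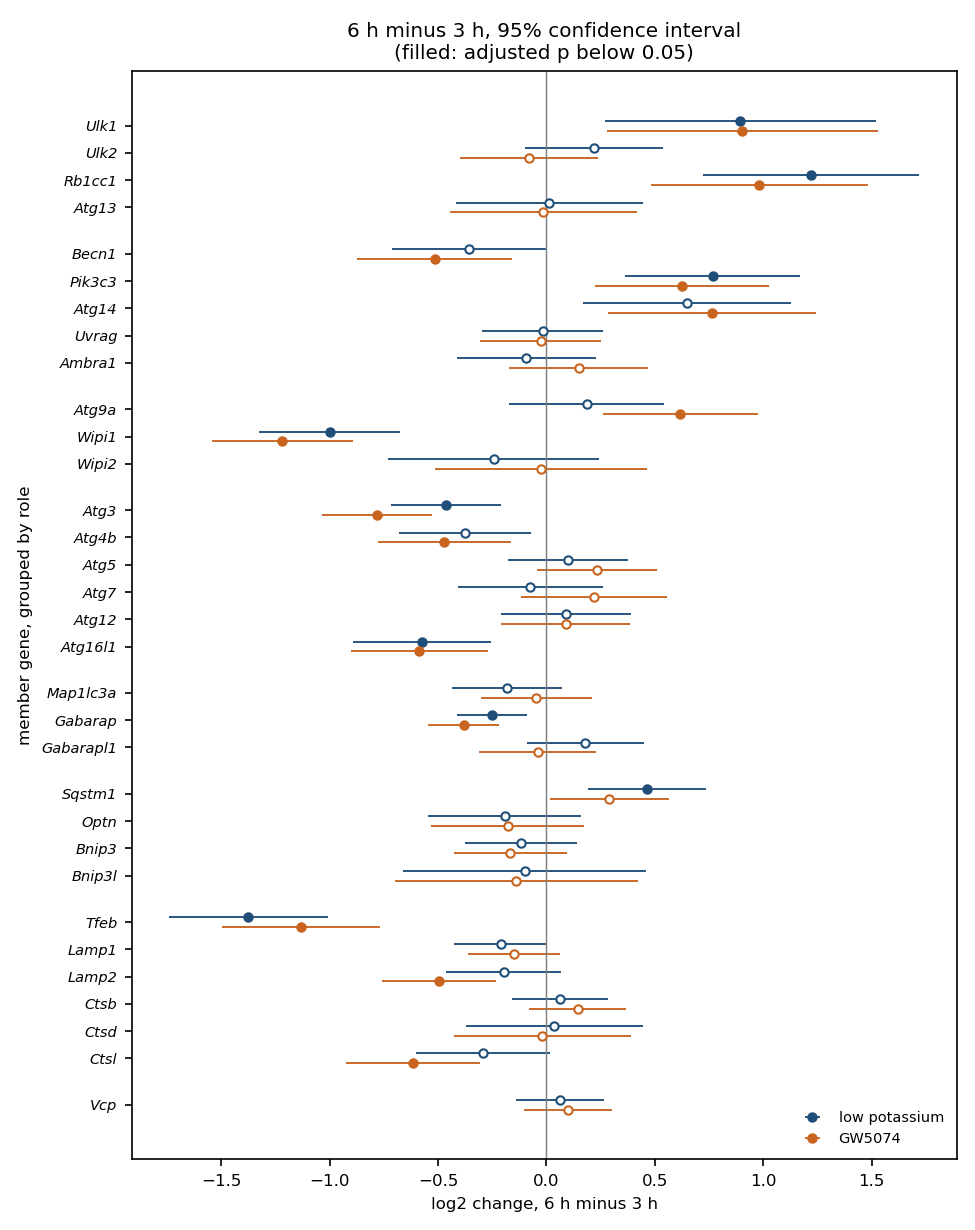
Log2 change from 3 h to 6 h of the 32 measured genes in low potassium (blue) and with GW5074 (orange), grouped by role, as points with 95% confidence intervals; filled points passed the threshold. The initiation genes Ulk1 and Rb1cc1 lie to the right of 0, and Wipi1, Atg3, Atg16l1, Gabarap and Tfeb to the left, in both treatments.

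In the initiation complex, 2 of 4 genes rose in each treatment. Rb1cc1 encodes FIP200, the scaffold of the ULK1 kinase complex. Its intensity was 465, 424 and 597 (low potassium) and 365, 462 and 778 (GW5074) at 3 h, and 1172, 968 and 1331 (low potassium) and 1172, 824 and 1105 (GW5074) at 6 h. Every 6 h array was higher than every 3 h array, and the 6 h array of letter B was the lowest of its group in both treatments. The log2 change was 1.22 ± 0.233 (SE, adjusted p = 0.00301) in low potassium, a 2.33-fold rise, and 0.98 ± 0.233 (SE, adjusted p = 0.00849) with GW5074. A dimmer probe set of Rb1cc1 also rose, by 1.20 and 0.69.

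Ulk1, the kinase that starts autophagy, had intensities of 83.2, 106 and 148 (low potassium) and 111, 101 and 163 (GW5074) at 3 h, and 231, 148 and 334 (low potassium) and 295, 170.5 and 334 (GW5074) at 6 h. The rise was 0.89 ± 0.292 (SE, adjusted p = 0.0411) and 0.90 ± 0.292 (SE, adjusted p = 0.0364). The times did not overlap with GW5074. In low potassium letter C at 3 h and letter B at 6 h came within 1 unit and overlapped after normalisation. Its dimmer probe set gave 0.44 and 0.45, neither past the threshold, and with the mean of its probe sets Ulk1 passed in neither treatment (0.666, adjusted p = 0.0607, and 0.675, adjusted p = 0.0562). The Ulk1 call in low potassium was lost without the low-potassium arrays 3 h A, 3 h B, 6 h A or 6 h C (adjusted p from 0.103 to 0.182) and without the GW5074 arrays 3 h A, 3 h B or 6 h A (0.0504 to 0.053). The call with GW5074 was lost without its arrays 3 h A, 3 h B, 6 h A or 6 h C (0.0973 to 0.14). The related kinase Ulk2 gave 0.22 and -0.08, and the adaptor Atg13 0.01 and -0.02, and neither passed.

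Of the 5 genes of the nucleation complex, which makes the lipid phosphatidylinositol 3-phosphate, 1 rose in low potassium, and 2 rose and 1 fell with GW5074. Pik3c3 is the catalytic lipid kinase. Its intensity was 85.8, 98.8 and 94.3 (low potassium) and 104, 93.8 and 100.3 (GW5074) at 3 h, and 213, 123 and 205 (low potassium) and 166, 148 and 196 (GW5074) at 6 h. All 6 h arrays were above all 3 h arrays, with the low-potassium letter B array nearest to the 3 h level. The change was 0.77 ± 0.188 (SE, adjusted p = 0.0109) in low potassium and 0.63 ± 0.188 (SE, adjusted p = 0.026) with GW5074. It did not pass without the low-potassium arrays 6 h A or 6 h C (adjusted p = 0.0537 and 0.0538), nor, with GW5074, without the arrays 3 h B, 3 h C, 6 h A or 6 h C (0.0586 to 0.105).

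Atg14 directs that complex to autophagy. Its intensities (mean ± SD, n = 3) were 93.0 ± 26.5, 83.8 ± 14.8, 159 ± 31.3 and 161 ± 41.5 in the order low potassium 3 h, GW5074 3 h, low potassium 6 h and GW5074 6 h, which is kept for all such series below. It rose with GW5074, 0.76 ± 0.224 (SE, adjusted p = 0.0233), and just missed the threshold in low potassium, 0.65 ± 0.224 (SE, adjusted p = 0.0504). Becn1, the regulatory subunit Beclin 1, had 966 ± 118, 959 ± 216, 742 ± 141 and 656 ± 74.5. It fell with GW5074, -0.52 ± 0.166 (SE, adjusted p = 0.036), and gave -0.36 ± 0.166 (SE, adjusted p = 0.137) in low potassium. Without the GW5074 arrays 3 h A, 3 h B, 6 h A or 6 h C, neither Atg14 (adjusted p from 0.06 to 0.1) nor Becn1 (0.0553 to 0.154) passed. Uvrag, a subunit of a second form of the complex, gave -0.02 and -0.03, and Ambra1, a Beclin 1 partner, -0.09 and 0.15, without passing.

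Wipi1, a protein that binds the lipid made by PIK3C3, and Tfeb, described below, had the largest falls of the set in both treatments. The intensity of Wipi1 was 597, 551 and 501 (low potassium) and 620.1, 604 and 572 (GW5074) at 3 h, and 235, 277 and 308 (low potassium) and 221, 319 and 239.5 (GW5074) at 6 h. The highest 6 h array, at 319, lay far below the lowest 3 h array, at 501. The change was -1.001 ± 0.153 (SE, adjusted p = 9.45e-04) in low potassium, or 2.00-fold lower, and -1.22 ± 0.153 (SE, adjusted p = 2.35e-04) with GW5074, or 2.33-fold lower. Its dimmer probe set fell too, by 1.16 and 1.40 on the log2 scale. Wipi2, its relative, gave -0.24 and -0.03, and did not pass.

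Atg9a, the membrane protein that brings lipid to the growing vesicle, had intensities of 273 ± 7.23, 250.3 ± 3.66, 328 ± 47.5 and 422 ± 108. It rose with GW5074, 0.62 ± 0.167 (SE, adjusted p = 0.0161), and gave 0.19 ± 0.167 (SE, adjusted p = 0.45) in low potassium. The difference between these changes did not pass (0.43 ± 0.236, SE, adjusted p = 1). The rise was lost without the GW5074 arrays 3 h B, 6 h A or 6 h C (adjusted p from 0.0509 to 0.0747).

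Among the 6 genes of the conjugation machinery 2 fell in low potassium and 3 with GW5074, and none rose. Atg3 is the enzyme that transfers Atg8-family proteins to lipid. Its intensity was 978, 952 and 875 (low potassium) and 1149, 1029 and 1038 (GW5074) at 3 h, and 705, 593 and 695 (low potassium) and 605, 538 and 708 (GW5074) at 6 h. The groups of the 2 times did not overlap in either treatment. Atg3 fell by 0.46 on the log2 scale in low potassium (SE 0.118, adjusted p = 0.0131) and by 0.78 with GW5074 (SE 0.118, adjusted p = 6.67e-04). Its upstream bases hold CACGTG, as printed above. Without the low-potassium array 3 h B the fall there did not pass (adjusted p = 0.0559).

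Atg16l1 is the scaffold that fixes where conjugation takes place. Its intensity was 268, 380 and 339.6 (low potassium) and 325, 359 and 409.9 (GW5074) at 3 h, and 234, 234 and 201 (low potassium) and 250.3, 259 and 237 (GW5074) at 6 h. All 6 h arrays lay below all 3 h arrays, the closest being letter A in low potassium at 3 h. The change was -0.57 ± 0.148 (SE, adjusted p = 0.0138) and -0.59 ± 0.148 (SE, adjusted p = 0.0115), and in low potassium it was lost without the arrays 3 h B or 6 h C (adjusted p = 0.0761 and 0.0623).

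Atg4b, the protease that trims Atg8-family proteins before conjugation, had intensities of 258 ± 16.9, 260.3 ± 32.9, 205 ± 27.3 and 193 ± 9.95. Its fall passed with GW5074, -0.47 ± 0.143 (SE, adjusted p = 0.0271), and not in low potassium, -0.38 ± 0.143 (SE, adjusted p = 0.0718). A second probe set of similar brightness gave 0.08 with GW5074, and the mean over both probe sets gave -0.194 (adjusted p = 0.249). The call was lost when any GW5074 array other than 3 h C was left out (adjusted p from 0.0517 to 0.107). The other members of the machinery did not pass: Atg5 gave 0.10 and 0.23, the activating enzyme Atg7 -0.07 and 0.22, and the ubiquitin-like Atg12 0.09 and 0.09.

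**Figure D2:**
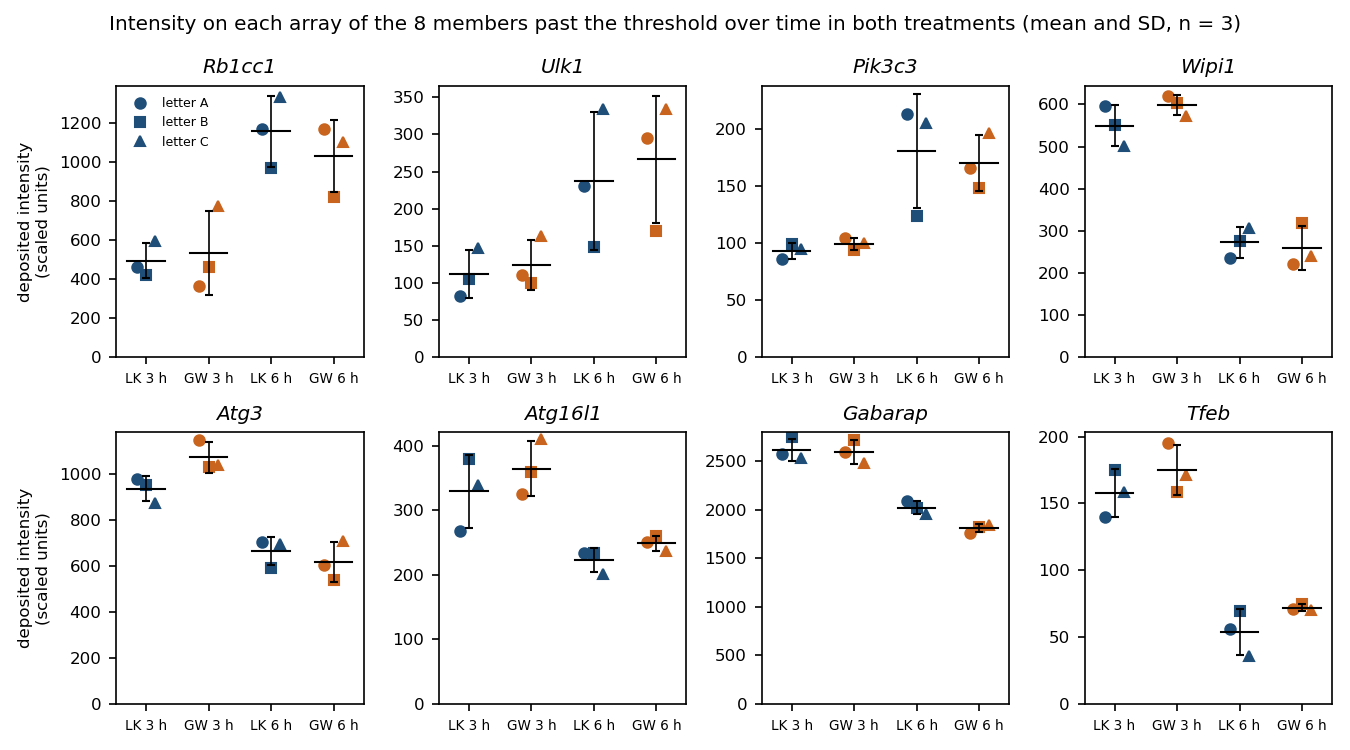
Deposited intensity on each of the 12 arrays for the 8 genes that passed the threshold over time in both treatments (circles, letter A; squares, letter B; triangles, letter C; bars, mean and SD of 3 arrays; LK, low potassium; GW, GW5074). Rb1cc1, Ulk1 and Pik3c3 are higher at 6 h and the other 5 lower; the 6 h squares of Ulk1 lie nearest to the 3 h points.

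Of the Atg8 family, the proteins that coat the growing membrane, 3 of 5 listed genes were measured and 1 fell. Gabarap had intensities of 2578, 2748 and 2530 (low potassium) and 2592, 2723 and 2479 (GW5074) at 3 h, and 2090, 2018 and 1958 (low potassium) and 1763, 1822 and 1848 (GW5074) at 6 h. The spread within a group was small, and every 6 h array was below every 3 h array. The fall was 0.25 on the log2 scale in low potassium (SE 0.0763, adjusted p = 0.0302), or 1.19-fold, and 0.38 with GW5074 (SE 0.0763, adjusted p = 0.00328), or 1.30-fold. A dim second probe set gave -0.05 and 0.16, so that the mean of both passed in neither treatment (-0.149 and -0.111, adjusted p = 0.327 and 0.473). In low potassium the call was also lost without the arrays 3 h A, 3 h B, 6 h B or 6 h C (adjusted p from 0.0579 to 0.121). Map1lc3a, the neuronal LC3A, gave -0.18 and -0.05, and Gabarapl1 0.18 and -0.04, and neither passed.

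Cargo receptors tie ubiquitin-tagged proteins or mitochondria to the Atg8 coat, and 1 of 4 measured genes passed. Sqstm1 encodes p62, the classic receptor, which is itself degraded by autophagy. Its brightest probe set had 2308, 2478 and 2120 (low potassium) and 2497, 2494 and 2084 (GW5074) at 3 h, and 3246, 2383 and 3195 (low potassium) and 2800, 2306 and 2772 (GW5074) at 6 h. In low potassium letters A and C were high at 6 h, while letter B lay among the 3 h arrays. With GW5074 letter B at 6 h lay below 2 of the 3 h arrays. After normalisation the times did not overlap in either treatment. The change was 0.46 ± 0.128 (SE, adjusted p = 0.0193) in low potassium and 0.29 ± 0.128 (SE, adjusted p = 0.112) with GW5074. A second bright probe set went the other way without passing, -0.29 and -0.41, with 908, 979 and 688 in low potassium at 3 h and 745, 562 and 766 at 6 h. The mean over the probe sets of Sqstm1 gave 0.04 (adjusted p = 0.869), and the call was lost without the low-potassium arrays 3 h A, 3 h C, 6 h A or 6 h C (0.0519 to 0.0869). These probe sets give no single direction for Sqstm1.

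Optn, a receptor for ubiquitin-tagged cargo, gave -0.19 and -0.18, and Bnip3, a mitochondrial receptor, -0.12 and -0.17, without passing. Bnip3l, known as NIX and also a receptor on mitochondria, gave -0.10 and -0.14. It is shown in full because of its arrays, a choice made after its values were seen: 911, 902 and 905 (low potassium) and 1003, 938 and 890.1 (GW5074) at 3 h, and 769, 588 and 1253 (low potassium) and 720.1, 624 and 1334 (GW5074) at 6 h. The 3 h arrays were tight, and at 6 h letter C was the highest and letter B the lowest in both treatments. The dimmer probe set had the same order, 878, 578 and 1297 (low potassium) and 917, 573 and 1297 (GW5074) at 6 h.

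In the lysosomal group 1 of 6 genes fell in low potassium and 3 with GW5074, and none rose. Tfeb, the transcription factor described above, had intensities of 139.8, 175 and 158 (low potassium) and 195, 159 and 171 (GW5074) at 3 h, and 56.4, 69.5 and 35.7 (low potassium) and 71.1, 74.9 and 70.0 (GW5074) at 6 h. The highest 6 h array was at 74.9 and the lowest 3 h array at 139.8, so the times were far apart in both treatments. The change was -1.38 ± 0.17 (SE, adjusted p = 3.71e-04) in low potassium, or 2.59-fold lower, and -1.13 ± 0.17 (SE, adjusted p = 6.66e-04) with GW5074, or 2.19-fold lower. The 6 h values of Tfeb lie in the dim range of these arrays, whose median intensities were 43.2 to 49.7.

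Lamp2 and Ctsl passed with GW5074. Lamp2, a main protein of the lysosomal membrane, had 1086, 1029 and 984 (low potassium) and 1211, 1144 and 986 (GW5074) at 3 h, and 975, 860.2 and 806 (low potassium) and 721, 879 and 718 (GW5074) at 6 h. With GW5074 the 6 h arrays were all below the 3 h arrays, and in low potassium the 6 h array A came within 10 units of the 3 h array C. It fell with GW5074, -0.50 ± 0.123 (SE, adjusted p = 0.0105), and gave -0.20 ± 0.123 (SE, adjusted p = 0.265) in low potassium. A dimmer probe set gave -0.44 with GW5074 without passing, and the call was lost without the GW5074 array 6 h A (adjusted p = 0.0503).

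Ctsl, the cysteine protease cathepsin L, had 2106, 2127 and 1651 (low potassium) and 2347, 2111 and 1647 (GW5074) at 3 h, and 1716, 1333 and 1390 (low potassium) and 1237, 1311 and 1140 (GW5074) at 6 h. The 2 times did not overlap with GW5074 and overlapped in low potassium. It fell with GW5074, -0.62 ± 0.144 (SE, adjusted p = 0.00773), and gave -0.29 ± 0.144 (SE, adjusted p = 0.157) in low potassium, while its dimmer probe set gave -0.10 with GW5074. The mean of both probe sets did not pass with GW5074 (-0.358, adjusted p = 0.0878). The other lysosomal genes did not pass. Lamp1, the partner of Lamp2, gave -0.21 and -0.15, cathepsin B (Ctsb) 0.06 and 0.14, and cathepsin D (Ctsd) 0.04 and -0.02. Vcp, an unfoldase that pulls proteins out of complexes and membranes, gave 0.06 and 0.10, with intensities of 1690 ± 121, 1769 ± 158, 1611 ± 97.0 and 1709 ± 57.7.

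Of the 6 genes with CACGTG in the window, Atg3 fell in both treatments and Atg14 rose with GW5074. Atg5, Bnip3, Ctsd and Lamp1 passed in neither.

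**Figure D3:**
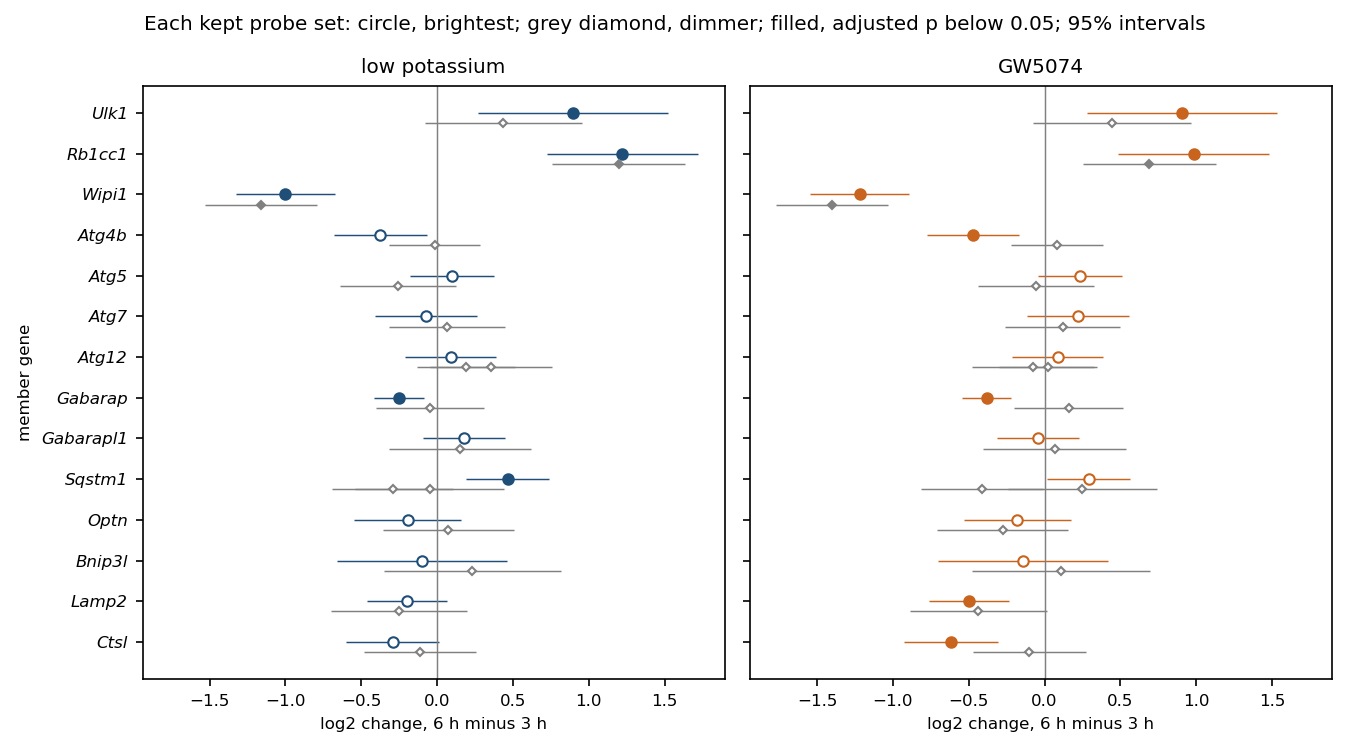
Log2 change from 3 h to 6 h of every kept probe set of the 14 genes that have 2 or more, in low potassium and with GW5074 (circles, brightest probe set; grey diamonds, dimmer ones; lines, 95% confidence intervals; filled, past the threshold). The probe sets of Rb1cc1 and Wipi1 lie together, and those of Sqstm1 lie on both sides of 0.

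At 6 h the array of letter B was often the least changed. It was nearest to the 3 h mean for 6 of the 9 genes called in low potassium (all but Wipi1, Atg3 and Gabarap) and for 10 of the 14 called with GW5074 (all but Becn1, Atg3, Atg4b and Gabarap). The share over all called genes was not counted, so this is not shown to be particular to the set. On the first principal component, taken over all kept probe sets, these arrays also lay nearer to 3 h, at 0.691 and 0.628. Counted by arrays alone, in normalised values, the 2 times did not overlap for 12 of 32 genes in low potassium (37.5%) and 15 of 32 with GW5074 (46.9%), beside 42.3% and 43.5% of all genes. In the deposited intensities, which are the ones printed here, the counts were 14 and 17, and 11 and 14 of the genes were in both counts. The shares of all genes were taken in normalised values only, so they are no background for these deposited counts. Of the 23 calls over time, 8 stayed past the threshold in all 21 alternatives: Rb1cc1, Wipi1 and Tfeb in both treatments, and Atg3 and Atg16l1 with GW5074. None of the 23 changed direction.

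GW5074 was set against low potassium at the same time to ask which genes the inhibitor moves. No gene of the 32 passed at 3 h, at 6 h or averaged over both, and none differed between the times. This was so in limma without and with a replicate block, which takes equal letters within a time as pairs. The labels do not state this pairing. Over all 10260 genes, 0 (0%) passed in each of these comparisons without the block. With it 1 gene passed at 3 h (0.00975%), 200 at 6 h (1.95%), 23 in the average (0.224%) and 19 in the difference between the times (0.185%). At an unadjusted p below 0.05, 0 of the 32 were found at 3 h, 1 at 6 h, 0 in the average and 0 in the difference between the times, and 2, 6, 3 and 6 with the block. The shares of all genes were 1.28%, 4.74%, 2.19% and 3.05%, and 5.78%, 16.7%, 9.98% and 13.1% with the block.

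**Figure D4:**
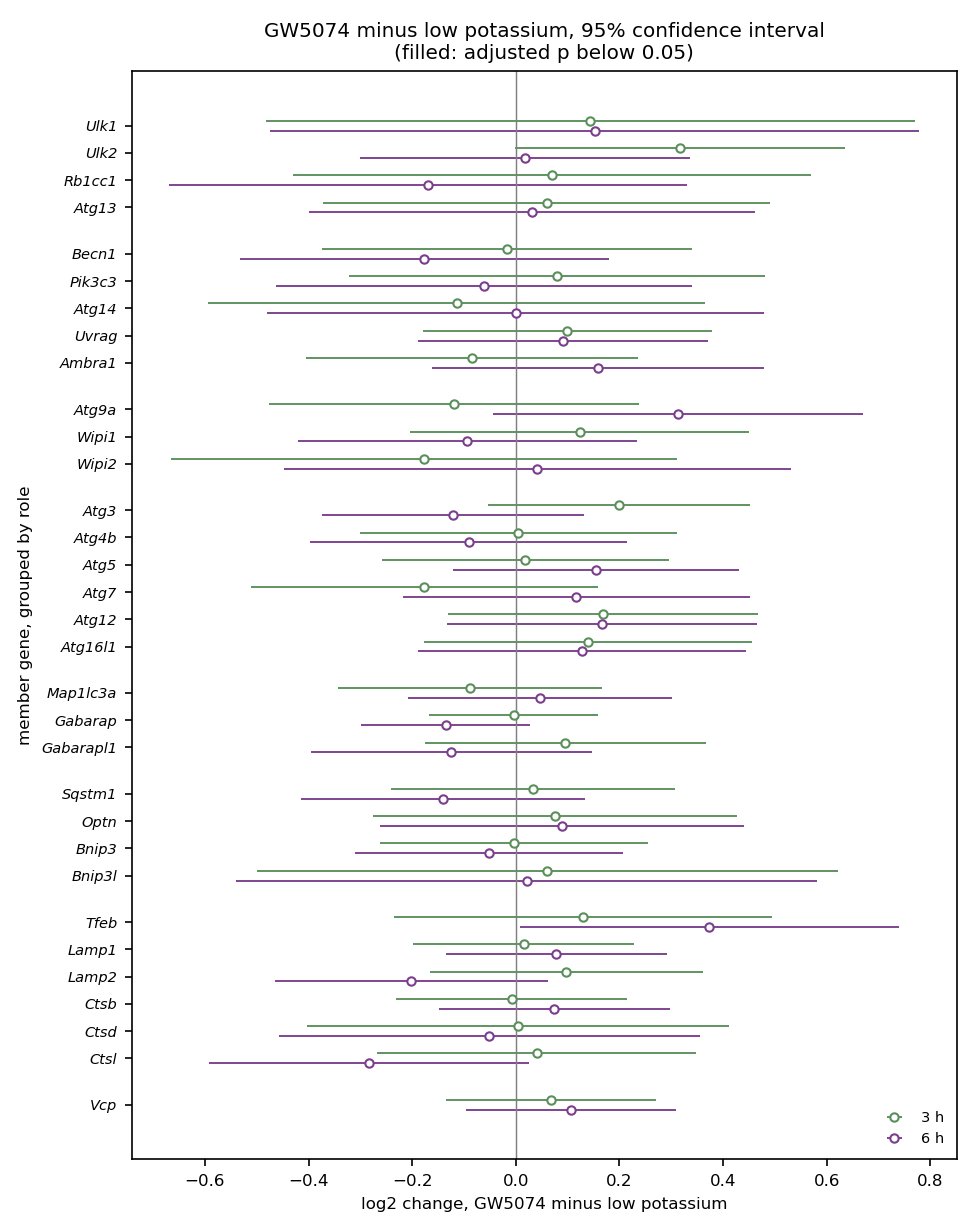
Log2 difference between GW5074 and low potassium of the 32 measured genes at 3 h (green) and 6 h (purple), grouped by role, as points with 95% confidence intervals of the fit without pairs. No point is filled, since none passed the threshold; all points lie between -0.28 and 0.37.

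The log2 differences of the 32 ran from -0.18 to 0.32 at 3 h (median 0.05) and from -0.28 to 0.37 at 6 h (median 0.03). The widest 95% interval was 0.626 to each side, for Ulk1, the most variable gene, so a difference of that size was not detectable there. In normalised values the arrays did not overlap for 5 of 32 genes at 3 h (15.6%), with Ulk2, Uvrag, Atg3 and Bnip3l higher with GW5074 and Atg9a lower. At 6 h they did not overlap for 3 (9.38%), with Tfeb higher and Ctsl and Gabarap lower. The shares of all genes were 7.31% and 9.27%. In the deposited intensities Uvrag and Bnip3l overlapped at 3 h, which leaves 3 genes, and Atg16l1 was also apart at 6 h, higher with GW5074, which gives 4. No share of all genes was taken in the deposited intensities.

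The smallest p at 3 h were those of Ulk2 and Atg3. Ulk2 had 176, 178 and 184 (low potassium) and 245, 238 and 203 (GW5074), a difference of 0.32 (95% interval -0.0016 to 0.63, adjusted p = 1, with the block 0.682). At 6 h the difference was 0.02. Atg3 differed by 0.20 at 3 h (-0.054 to 0.45, adjusted p = 1, with the block 0.716) and by -0.12 at 6 h.

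At 6 h they were those of Tfeb and Ctsl. Tfeb was higher with GW5074 on each paired letter, by 0.37 (95% interval 0.0086 to 0.74, limma adjusted p = 0.983, with the block 0.23). Its groups were 56.4, 69.5 and 35.7 (low potassium) and 71.1, 74.9 and 70.0 (GW5074). The brightest probe set of Ctsl was lower on each letter, by 0.28 on the log2 scale (-0.59 to 0.025, limma adjusted p = 0.983, with the block 0.0842). Its dimmer probe set had 675, 630 and 482 (low potassium) and 529, 689 and 503 (GW5074) at 6 h, lower with GW5074 on letter A and higher on letters B and C. With the block and without the 6 h arrays of letter B, the brightest probe set of Ctsl passed at -0.407 (limma adjusted p = 0.024). That was the only alternative of 28 in which any of the 32 passed for GW5074. RNA quality was read from actin and Gapdh control probe sets. For actin the log2 signal at the 3-prime end minus that at the 5-prime end was higher with GW5074 in 6 of 6 pairs, with group means of 0.936 and 1.05 at 3 h and 0.993 and 1.10 at 6 h. The same difference for Gapdh was higher with GW5074 in 4 of 6 pairs and lower in 2. Their part in these differences was not tested.

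The change over time was also compared between the treatments. The difference between the 2 time changes ran from -0.32 (Ctsl) to 0.43 (Atg9a), with intervals of up to 0.886 to each side. None of these differences passed, with a lowest adjusted p of 0.208 with the block, for Atg9a. The genes that passed in 1 treatment alone, Sqstm1 in low potassium and Becn1, Atg14, Atg9a, Atg4b, Lamp2 and Ctsl with GW5074, are therefore not shown to differ between the treatments.

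The neighbouring genes of the pathway were taken from 5 lists with 131 measured genes. Of these, 10 rose and 15 fell in low potassium (19.1%), and 18 rose and 16 fell with GW5074 (26%), with median log2 changes of -0.02 and -0.01. Of all genes 25.6% and 27.6% passed. Other autophagy machinery gave 5 rises and 2 falls of 31 in low potassium (22.6%) and 7 and 3 with GW5074 (32.3%). Zfyve1, which encodes DFCP1, a marker of the membrane on which the vesicle forms, had 60.7, 48.3 and 49.6 (low potassium) and 50.3, 38.2 and 52.2 (GW5074) at 3 h, and 160, 119 and 169 (low potassium) and 190.4, 114 and 165 (GW5074) at 6 h. Every 6 h array was above every 3 h array, with changes of 1.23 ± 0.197 (SE, adjusted p = 0.00119) and 1.41 ± 0.197 (SE, adjusted p = 4.21e-04). Atg10, the enzyme that joins ATG12 to ATG5, rose by 0.85 and 0.96, and Tmem41b, a lipid scramblase, by 0.75 and 0.50. Rab7a, the small GTPase of late endosomes, fell by 0.41 and 0.33, and Wdr45b, a relative of Wipi1, by 0.57 and 0.83 on the log2 scale.

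Of the neighbouring lysosomal lists, the enzymes had the smallest share past the threshold in both treatments. Of 33 other lysosomal enzymes 0 rose and 3 fell in low potassium (9.09% passed, beside 25.6% of all genes), and 2 rose and 3 fell with GW5074 (15.2%, beside 27.6%), with median log2 changes of -0.07 and 0.01. Hexa, a subunit of beta-hexosaminidase, had 329 ± 33.9, 326 ± 19.7, 207 ± 20.3 and 199 ± 4.20 and changed by -0.69 ± 0.128 (SE, adjusted p = 0.00268) and -0.73 ± 0.128 (SE, adjusted p = 0.00155). The sialidase Neu1 fell by 0.70 and 0.65, and Naglu, which degrades heparan sulfate, by 0.68 and 0.76 on the log2 scale, while the beta-mannosidase Manba rose with GW5074 by 0.71. Of 18 membrane and sorting genes, 1 rose and 3 fell in low potassium (22.2%), and 1 rose and 2 fell with GW5074 (16.7%). Scarb2, the membrane protein LIMP-2, had 178 ± 14.9, 176 ± 18.7, 95.8 ± 20.3 and 90.3 ± 5.75 and fell by 0.88 and 0.88 on the log2 scale (adjusted p = 0.0024 and 0.00189). Gnptg, part of the enzyme that tags lysosomal proteins with mannose 6-phosphate, fell by 0.65 and 0.92, and the sorting receptor Sort1 rose by 0.56 and 0.60.

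The proton pump that acidifies the lysosome gave 1 rise and 2 falls of 19 in low potassium (15.8%) and 2 and 3 with GW5074 (26.3%). The shares of all genes were 25.6% and 27.6%. Its membrane subunit Atp6v0b fell by 0.57 and 0.53 on the log2 scale, while Atp6v1g2, a neuronal subunit, rose by 0.31 and 0.55. Atp6v1b2 fell by 0.26 in low potassium and Atp6v1c1 by 0.38 with GW5074. Among 30 genes of the mTORC1 and AMPK kinases, which restrain and promote autophagy, 3 rose and 5 fell in low potassium (26.7%), and 6 and 5 with GW5074 (36.7%). Sesn1, a stress-induced inhibitor of mTORC1, had 369.7, 403 and 532 (low potassium) and 357, 424 and 387 (GW5074) at 3 h, and 1035, 937 and 1401 (low potassium) and 1035, 701 and 1250 (GW5074) at 6 h. Its arrays of the 2 times did not overlap, with changes of 1.35 ± 0.203 (SE, adjusted p = 8.99e-04) and 1.29 ± 0.203 (SE, adjusted p = 8.44e-04). Its relative Sesn2 was lower at 6 h, with 737 ± 104, 623 ± 45.7, 414 ± 136 and 377 ± 84.4. Ddit4 of the same list was lower too, with 687 ± 160, 578.5 ± 96.8, 444.5 ± 56.5 and 386.5 ± 78.8. Sesn3 was dim, with means of 41.7, 37.6, 53.8 and 36.9. Fnip1, a partner of folliculin, rose by 0.75 and 0.53, the AMPK subunit Prkag2 by 0.69 and 0.84, and the AMPK subunit Prkag1 fell by 0.61 and 0.60 on the log2 scale.

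**Figure D5:**
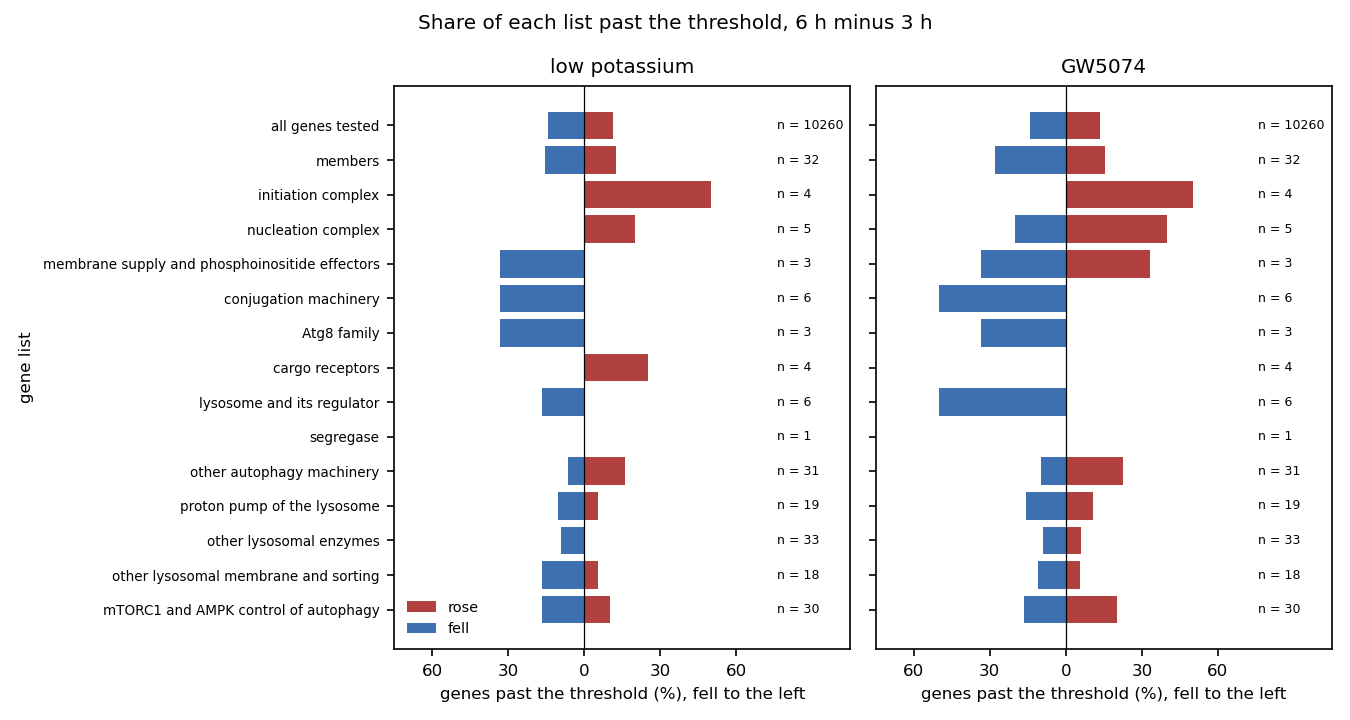
Share of the measured genes of each list that rose (red, right) or fell (blue, left) past the threshold from 3 h to 6 h, in low potassium and with GW5074, with the number of genes tested at the right and all genes tested in the top row. The initiation complex shows 2 rises of 4 genes and the conjugation machinery 2 and 3 falls of 6, and the role groups hold 6 genes or fewer.

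For GW5074 against low potassium none of the 131 neighbouring genes passed without the block (4 at 3 h and 6 at 6 h had an unadjusted p below 0.05), and 2 passed at 6 h with it. Of all genes, 0% passed without the block, and 1.95% passed at 6 h with it. The unadjusted shares of all genes without the block were 1.28% at 3 h and 4.74% at 6 h. Atp6v0a1, the proton pump's membrane subunit of neurons, had 514, 534 and 729.5 (low potassium) and 918, 782 and 937 (GW5074) at 6 h. Its 3 GW5074 arrays were all higher, by 0.58 (adjusted p = 0.755 without and 0.00697 with the block). Laptm4a, a small lysosomal membrane protein, was lower by 0.33 on the log2 scale (adjusted p = 0.983 without and 0.0416 with the block).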

How the data were processed

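Gene expression was measured on 12 Affymetrix rat arrays, 3 in each of 4 groups, grouped by the titles in the labels. The authors deposited 1 linear intensity per probe set and array, scaled, as the values show, so that each array's mean is 150 once 2% is trimmed from either end. Summarisation and software: not given in the sources used here. The number of arrays limits the precision. Of 31099 probe sets 57 are controls, and 20826 carry 1 gene symbol in the platform table, 436 several and 9780 none.

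Values were quantile-normalised over non-control probe sets and log2 of the value plus 16 was taken. Probe sets with a mean over all arrays at or above the 40th percentile were kept (18625, for 10260 genes). Groups were compared in R 4.3.3 with limma 3.58.1 (lmFit, eBayes with trend, two-sided, 4 group means, Benjamini-Hochberg), with 8 residual degrees of freedom, and 4 with a replicate block within time. A block was used only within a time, with equal letters taken as pairs, which the labels do not state. After removal of group means, arrays of a letter correlated by 0.426, 0.209 and 0.543 at 3 h and 0.293, 0.65 and 0.571 at 6 h. Each low-potassium array correlated best with the GW5074 array of its own letter at that time. The pairing thus rests on these same data. Whether a letter links samples across the times is not said in the labels and was not tested. The comparisons over time use no such pairing.

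Every member is named, by its brightest probe set. Values on each array are given for up to 8 members of smallest p past the threshold over time and for the 2 of smallest p for GW5074, with Ulk1 and Bnip3l added after their values were seen, and up to 3 genes of smallest p are named from each neighbouring list in a comparison. Sesn2, Sesn3 and Ddit4 were added after their values were seen. The members and lists were chosen with earlier results of these data known. The fits were tested on simulated data. Alternatives were the block (fixed or random), other pseudocounts (1 and 64), other filters, no quantile normalisation, no trend, the mean of all probe sets, and each array or pair left out. Promoter windows are RefSeq's (GRCr8), matched by gene identifier. Figures used matplotlib 3.10.9.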

Additional observations from a re-analysis of the deposited data

How the results depend on the processing

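For GW5074 against low potassium, the count of genes past the threshold stayed at 0 in all 28 alternatives at 3 h, in the average and in the difference between the times, the replicate block included, and at 6 h rose to 1 falling gene (Ctsl) with the replicate block and without the 6 h pair B. From 3 h to 6 h, leaving out 1 array gave between 1 and 5 rising genes and between 2 and 5 falling genes in low potassium, and between 1 and 6 rising genes and between 6 and 9 falling genes with GW5074. With no mean-variance trend 2 genes rose in low potassium. With both 6 h arrays of letter B left out, chosen after seeing the data, 5 rose and 6 fell in low potassium and 6 rose and 9 fell with GW5074, while the share of all genes past the threshold went to 33.6% and 35.2%. None of the 23 changes over time past the threshold turned direction in any alternative. Without the filter on dim probe sets Ulk1 passed in neither treatment (adjusted p = 0.0655 and 0.0579), nor did Gabarap in low potassium (0.0581) or Becn1 with GW5074 (0.0519). Without the trend, Ulk1 (0.0554), Gabarap (0.121) and Sqstm1 (0.0537) in low potassium and Becn1 with GW5074 (0.0592) did not pass. Without quantile normalisation Sqstm1 did not (0.0741). The cause was not tested in these cases, beyond the smaller number of samples where an array was left out. Dim genes are limited by their signal.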
